A study of Homo sapiens with 29 samples.

Results

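The endoplasmic reticulum (ER) folding and unfolded protein response genes described here are a list of 40 genes, all found by symbol among the 23710 genes of the deposited expression table. They comprise 9 chaperones and cochaperones of the lumen, 3 genes of the lectin chaperone cycle, 10 disulfide enzymes, 9 genes of ER-associated degradation, 6 sensors, stress factors and phosphatase subunits, and 3 translocation genes. Of the 40, 38 were at or above 1 FPKM (fragments per kilobase of transcript, scaled to library depth) in every one of the 27 RNA libraries and could be tested in each comparison. The other 2, TXNDC5 and DERL3, lay under the minimum level in both blocks of libraries and were not tested.

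RNA was sequenced from H460 and H2122, established human lung cancer cell lines that both carry KEAP1 mutations, so that the oxidative stress factor NRF2 (gene NFE2L2) escapes its usual degradation. H460 cells were sampled 72 h after knockdown with short hairpin RNAs (sh) against NRF2, SNW1, a coregulator of transcription and splicing, or NR0B1, an orphan nuclear receptor that NRF2-active lung cancer cells express, and the matched control carried a hairpin against GFP. H2122 cells carried hairpins against NRF2 or GFP and were sampled at 24 h. In the compound libraries, for which the labels name no hairpin, H460 cells received 30 µM BPK29, 30 µM BPK9 or the solvent DMSO for 12 h; both compounds are known here by code name only. Each of these 9 groups had 3 libraries. Every knockdown group and its control carried a hairpin, the labels give no hairpin sequence and do not say how many hairpins were used per target, and nothing states that the libraries of a group came from separate cultures, so the spread that p-values rest on may be purely technical.

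Proteins that enter the secretory pathway fold in the ER with the help of an Hsp70 chaperone (HSPA5, also called BiP), an Hsp90 chaperone (HSP90B1), sugar-binding chaperones and protein disulfide isomerases, and those that fail are returned to the cytosol and degraded. When unfolded protein builds up, 3 membrane sensors respond: ERN1 (IRE1) splices XBP1 mRNA into a transcription factor, ATF6 is cut to release one, and EIF2AK3 (PERK) phosphorylates the initiation factor eIF2 and slows translation. ATF6 and XBP1 raise chaperone and degradation genes through the ER stress response element (ERSE), which pairs a CCAAT box with CCACG, and through the shorter ERSE-II. The measured values are totals per gene, so spliced and unspliced XBP1 mRNA are not separated here.

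These elements were looked for because they are the DNA sequences through which the response is known to reach its targets. The motifs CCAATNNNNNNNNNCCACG (ERSE) and ATTGGNCCACG (ERSE-II) were searched on both strands in the 250 bases before each transcript start in RefSeq promoters of build GRCh38.p14. Of the 40 members, 37 matched a promoter entry, ERO1L and ERO1LB through their current symbols; PDIA3, DERL1 and DERL3 are not covered. ERSE was found in 8 of the 37 (21.6%), against 25 of 27305 genes in the whole promoter table (0.0916%), and ERSE-II in 3 (8.11%), against 18 genes (0.0659%). No member held both motifs, so no base falls in the 2 at once. The counts over the whole promoter table include the members. The elements were chosen because they are known for this response, so the shares are not an independent finding. A match describes letters, not a bound site. The matches are written 5′ to 3′ on the strand that holds the motif, with its fixed letters in capitals, and the coordinates, the strand and the gene come before each.
HSPA5 (chr9:125241391-125241409, minus strand): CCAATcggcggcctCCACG
HSP90B1, farther from the start (chr12:103930216-103930234, plus strand): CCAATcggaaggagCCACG
HSP90B1, nearer the start (chr12:103930321-103930339, minus strand): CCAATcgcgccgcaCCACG
HYOU1, nearer the start (chr11:119057274-119057284, plus strand): ATTGGaCCACG
HYOU1, farther from the start (chr11:119057380-119057390, plus strand): ATTGGaCCACG
SDF2L1 (chr22:21642114-21642124, minus strand): ATTGGtCCACG
CRELD2 (chr22:49918554-49918572, minus strand): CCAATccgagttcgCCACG
CALR (chr19:12938384-12938402, minus strand): CCAATgatggtcgaCCACG
CANX (chr5:179698778-179698796, plus strand): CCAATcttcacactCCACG
PDIA6 (chr2:10812853-10812871, minus strand): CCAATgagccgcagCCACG
ERO1LB (chr1:236282183-236282201, plus strand): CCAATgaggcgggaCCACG
HERPUD1 (chr16:56932025-56932035, plus strand): ATTGGgCCACG
XBP1 (chr22:28800603-28800621, minus strand): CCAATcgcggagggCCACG
HSP90B1 and HYOU1 held a pair each and the other 9 genes 1 each.

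Whole promoter windows are shown for 5 of these 11 genes, whose levels are given library by library in what follows: the Hsp70 and Hsp90 chaperones, the lectin chaperone CALR, the degradation gene HERPUD1 and the response's own factor XBP1. Each is the 250 bases before the transcript start on the strand of the gene, with the element in capitals; an element on the opposite strand reads as its reverse complement (CGTGG first).
HSPA5 (chr9:125241344-125241593, minus strand): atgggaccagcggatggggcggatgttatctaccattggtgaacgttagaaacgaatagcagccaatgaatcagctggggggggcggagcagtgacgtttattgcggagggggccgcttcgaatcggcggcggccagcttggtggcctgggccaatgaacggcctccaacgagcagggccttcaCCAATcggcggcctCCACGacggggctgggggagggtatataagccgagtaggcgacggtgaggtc
HSP90B1 (chr12:103930160-103930409, plus strand): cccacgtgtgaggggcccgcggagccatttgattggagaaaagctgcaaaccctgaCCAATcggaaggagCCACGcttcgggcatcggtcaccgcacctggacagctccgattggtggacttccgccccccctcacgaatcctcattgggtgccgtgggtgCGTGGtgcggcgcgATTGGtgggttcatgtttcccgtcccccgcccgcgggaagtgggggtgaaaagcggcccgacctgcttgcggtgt
CALR (chr19:12938359-12938608, plus strand): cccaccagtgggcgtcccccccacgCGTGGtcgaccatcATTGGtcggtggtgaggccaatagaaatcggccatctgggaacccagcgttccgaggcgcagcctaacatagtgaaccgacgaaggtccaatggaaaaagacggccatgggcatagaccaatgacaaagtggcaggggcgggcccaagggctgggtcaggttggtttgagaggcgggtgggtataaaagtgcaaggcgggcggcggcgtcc
HERPUD1 (chr16:56931892-56932141, plus strand): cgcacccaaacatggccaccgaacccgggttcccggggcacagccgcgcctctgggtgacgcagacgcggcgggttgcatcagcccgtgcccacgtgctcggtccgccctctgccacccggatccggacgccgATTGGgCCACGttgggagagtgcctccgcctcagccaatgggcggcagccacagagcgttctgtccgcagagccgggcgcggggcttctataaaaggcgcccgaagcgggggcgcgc
XBP1 (chr22:28800570-28800819, minus strand): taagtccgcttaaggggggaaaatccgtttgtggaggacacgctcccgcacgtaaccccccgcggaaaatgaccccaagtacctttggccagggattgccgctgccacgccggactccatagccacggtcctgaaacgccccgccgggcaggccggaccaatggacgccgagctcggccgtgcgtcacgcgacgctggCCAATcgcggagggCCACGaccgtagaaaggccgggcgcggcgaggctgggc
In HSPA5 the element spans bases 66 to 48 before the start, in XBP1 bases 52 to 34 and in HERPUD1 bases 117 to 107. The CALR element lies farther out, from base 225 to base 207.

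Depth, recovered from the FPKM values as described under the processing, ran over the 18 knockdown libraries between 16709572 and 24613136 reads, and over the 9 libraries of the compound block between 19076855 and 24823666. The targeted mRNAs were reduced: NFE2L2 had 25.8, 26.8 and 27.9 FPKM in the H460 shNRF2 libraries, against 44.02, 44.3 and 41.5 FPKM in shGFP, and 27.5, 25.8 and 26.5 FPKM in H2122 shNRF2, against 59.5, 58.4 and 57.5 FPKM in H2122 shGFP. SNW1 had 30.9, 34.3 and 31.5 FPKM in shSNW1 and 51.9, 52.3 and 49.3 FPKM in H460 shGFP, and NR0B1 19.05, 18.3 and 17.2 FPKM in shNR0B1 and 48.9, 45.7 and 48.2 FPKM in shGFP. NR0B1 was also lower after NRF2 knockdown in H460, at 8.997, 8.82 and 9.35 FPKM, below its level in shNR0B1. It was lower in H2122 shNRF2 too (log2 fold change -3.32 against shGFP). In H460, SNW1 was lower in shNRF2 than in shGFP (-0.20). NFE2L2 was higher than in shGFP in shSNW1 (0.40) and in shNR0B1 (0.33), and NR0B1 was higher in shSNW1 (0.33). The H460 knockdowns thus did not move their own target alone. The epithelial keratins were abundant in both lines (1198 to 2249 FPKM summed over 5 epithelial markers in H460, 2566 to 4012 in H2122), but in H460 CDH1 and EPCAM, the defining adhesion molecules, were at most 0.066 and 1.4 FPKM. Markers of immune cells (5 genes) summed to 7.66 to 8.89 FPKM in H460 shNRF2, 2.65 to 2.73 in shSNW1, 10.5 to 10.98 in shNR0B1 and 4.93 to 6.2 in H460 shGFP, and to 10.14 to 10.87 in H2122 shNRF2 and 1.22 to 1.39 in H2122 shGFP. The T cell gene CD3E was at 0 in every knockdown library and the leukocyte gene PTPRC at most at 0.026 FPKM, so these sums came from LYZ, CD14 and CD79A. Of the 5 immune markers, 1 averaged at least 1 FPKM in each H460 group, 2 did in H2122 shNRF2 and 0 in H2122 shGFP. Fibroblast and endothelial markers (5 genes) summed to 13.9 to 14.9 FPKM in H460 shNRF2, 5.98 to 6.39 in shSNW1, 15.5 to 16.6 in shNR0B1 and 7.17 to 7.89 in shGFP, and in H2122 to 13.9 to 14.5 in shNRF2 and 9.42 to 10.4 in shGFP. These sums moved with the groups, and their part in the results was not tested. In bulk RNA, fewer cells of a type and less RNA per cell cannot be told apart.

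By summed FPKM, NRF2 knockdown in H460 was the condition in which the ER folding genes stood highest. The most abundant genes weigh most in such a sum, and some members, such as CANX and DNAJC3, averaged higher in another group. The 40 members summed to 7600, 7698 and 7470 FPKM in shNRF2, against 4646, 4646 and 4719 FPKM in shGFP. Of the 38 tested, 32 rose and 4 fell at an adjusted p under 0.05 (limma on log2(FPKM + 1), Benjamini-Hochberg over all 11938 genes tested), where 40.9% of all genes tested were called higher and 39% lower (79.8% in all). The median log2 fold change was 0.52 over the members and 0.01 over all genes. Among changes of at least 1.5 fold, 18 members were higher and 1 lower, beside 16.5% and 14.9% of all genes. Log2 fold changes here and in what follows are on the log2(FPKM + 1) scale and carry their standard error (SE). They understate the change of low genes, and counts at 1.5 fold use the same scale. The third shGFP library differed more from its replicates than any other library did (chi-square per degree of freedom 5.99 and 4.68, against 1.26 to 2.54 in the other pairs); without it 31 members were higher and 4 lower after NRF2 knockdown, 8 and 27 after SNW1 knockdown and 22 and 13 after NR0B1 knockdown.

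Of the 9 chaperones of the lumen, 8 rose and MANF fell. HSPA5, the Hsp70 of the ER lumen that also holds the 3 sensors inactive, had 725, 742 and 724 FPKM in the shNRF2 libraries and 350.3, 343 and 338 FPKM in shGFP, a log2 fold change of 1.08 ± 0.0268 (adjusted p = 4.51e-13). The groups did not overlap. HSP90B1, the lumenal Hsp90, was the most abundant of them, at 1288, 1362 and 1310.1 FPKM in shNRF2 and 729.9, 743 and 707 FPKM in shGFP (0.86 ± 0.0341). HYOU1, which exchanges the nucleotide of HSPA5, had 151, 146 and 138 FPKM in shNRF2 and 79.2, 79.4 and 83.7 FPKM in shGFP (0.84 ± 0.0381). Thus the Hsp70, its exchange factor and the Hsp90 each stood above every control library. The J-domain cochaperones that guide HSPA5 to its clients rose as well, with log2 fold changes of 0.82 for DNAJC3, 0.69 for DNAJB9 and 0.29 for DNAJB11, and so did SDF2L1, a partner of DNAJB11 (0.58), and the stress-induced CRELD2 (0.45). MANF, a small secreted protein that binds HSPA5 and is induced by ER stress, went the other way, with 89.8, 94.1 and 89.97 FPKM in shNRF2 and 137, 129 and 134 FPKM in shGFP (-0.54 ± 0.0402, adjusted p = 2.06e-08). Its libraries did not overlap either.

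All 3 lectin cycle genes rose. CALR, the soluble lectin that holds glycoproteins while they fold, had 931, 959 and 907 FPKM in shNRF2 and 385, 400.4 and 421 FPKM in shGFP (1.21 ± 0.0341, adjusted p = 1.27e-12). Its membrane-bound counterpart CANX had 419, 444 and 433 FPKM in shNRF2 and 259, 269.6 and 248 FPKM in shGFP (0.74 ± 0.033). UGGT1, which puts a glucose back on misfolded glycoproteins so that the lectins rebind them, had 30.8, 31.8 and 29.6 FPKM in shNRF2 and 16.5, 17.3 and 15.1 FPKM in shGFP (0.88 ± 0.046). For each of the 3, every shNRF2 library stood above every shGFP library.

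Of the 9 disulfide enzymes tested, 8 rose and ERO1L was not called. PDIA3, the isomerase that works with CALR and CANX, had 481, 514 and 491 FPKM in shNRF2 and 310.2, 304 and 289 FPKM in shGFP (0.72 ± 0.0349). P4HB, protein disulfide isomerase itself and a subunit of prolyl 4-hydroxylase, had 1087, 1018 and 1009 FPKM in shNRF2 and 585, 582 and 653 FPKM in shGFP (0.78 ± 0.0429), and PDIA4 averaged 372 ± 4.98 FPKM in shNRF2 and 211 ± 4.88 FPKM in shGFP (SD, n = 3 each). These abundant isomerases were well separated from the controls, while PDIA6 (0.17) and PDIA5 (0.12 ± 0.0433, adjusted p = 0.0225) moved little. The call of PDIA5 was lost at a common total (0.0815, adjusted p = 0.103), under median-ratio factors within the fit (0.0768) and with voom (0.0523), and without shNRF2 replicate 2 (0.101) or shGFP replicate 1 (0.114) or 2 (0.111). ERP44, which retains client proteins and oxidases in the early secretory pathway, and ERP29, an isomerase relative, rose by 0.38 and 0.31 on the log2 scale. The 2 oxidases that recharge the isomerases differed: ERO1LB had 9.205, 9.999 and 9.53 FPKM in shNRF2 and 5.22, 5.03 and 4.46 FPKM in shGFP (0.84 ± 0.0553), whereas ERO1L had 56.2, 58.8 and 60.3 FPKM in shNRF2 and 57.4, 55.6 and 52.1 FPKM in shGFP (0.08 ± 0.0417, adjusted p = 0.0773), with overlapping libraries. Without shNRF2 replicate 1 (0.112) or shGFP replicate 1 (0.115) ERO1L was called higher.

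Degradation genes split. SEL1L, the adaptor that brings clients to the ubiquitin ligase SYVN1 (HRD1), showed the largest rise of any member, with 40.6, 43.6 and 39.7 FPKM in shNRF2 and 14.6, 16.04 and 14.7 FPKM in shGFP (1.39 ± 0.0428, adjusted p = 2.78e-12). OS9, the lectin that recognises trimmed glycans on doomed proteins, had 231, 223 and 213 FPKM in shNRF2 and 90.03, 91.9 and 99.8 FPKM in shGFP (1.23 ± 0.0421). HERPUD1, which assembles the SYVN1 complex, had 63.6, 62.5 and 59.8 FPKM in shNRF2 and 32.9, 34.1 and 32.8 FPKM in shGFP (0.88 ± 0.0417). The 3 share one ligase complex, whose catalytic subunit SYVN1 rose too (0.79). DERL2, of the derlin family that helps move clients out of the ER, rose slightly (0.13; 0.0598 and not called with voom), but its relative DERL1 fell (-0.40 ± 0.0379), as did EDEM1, which accelerates mannose trimming (-0.28 ± 0.0543); EDEM2 was not called (-0.06 ± 0.0577), except as lower with voom (-0.134, adjusted p = 0.0172). 

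Among the sensors, EIF2AK3 had 9.67, 10.6 and 9.17 FPKM in shNRF2 and 5.71, 5.61 and 5.15 FPKM in shGFP (0.74 ± 0.0585), and ERN1, near the minimum level, 3.77, 3.71 and 3.04 FPKM in shNRF2 and 1.497, 1.94 and 2.05 FPKM in shGFP (0.67 ± 0.084). Both kinase sensors were thus higher. ATF6 (0.28) and XBP1 (0.24) rose less, XBP1 with 93.05, 94.3 and 93.1 FPKM in shNRF2 and 81.7, 76.02 and 78.7 FPKM in shGFP. The 2 subunits that direct phosphatase to eIF2 went apart. PPP1R15A (GADD34), the inducible one, had 9.68, 9.76 and 9.01 FPKM in shNRF2 and 6.45, 7.32 and 6.94 FPKM in shGFP (0.41 ± 0.0482), and PPP1R15B, the constitutive one, 24.3, 23.3 and 25.4 FPKM in shNRF2 and 46.9, 46.02 and 45.05 FPKM in shGFP (-0.89 ± 0.0375, adjusted p = 5.38e-11). PPP1R15B was the only member at least 1.5 fold lower. Of the translocation genes, SEC61A1 (0.30) and SEC61B (0.17), which form the protein channel, rose, and the translocon-associated SSR1 was called with overlapping libraries (0.09 ± 0.0375, adjusted p = 0.0476). That call did not hold without shGFP replicate 3 (0.053, adjusted p = 0.178) or without shNRF2 replicate 2 (0.067, adjusted p = 0.165), nor under the other scalings (0.0159 to 0.0495).

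**Figure D1:**
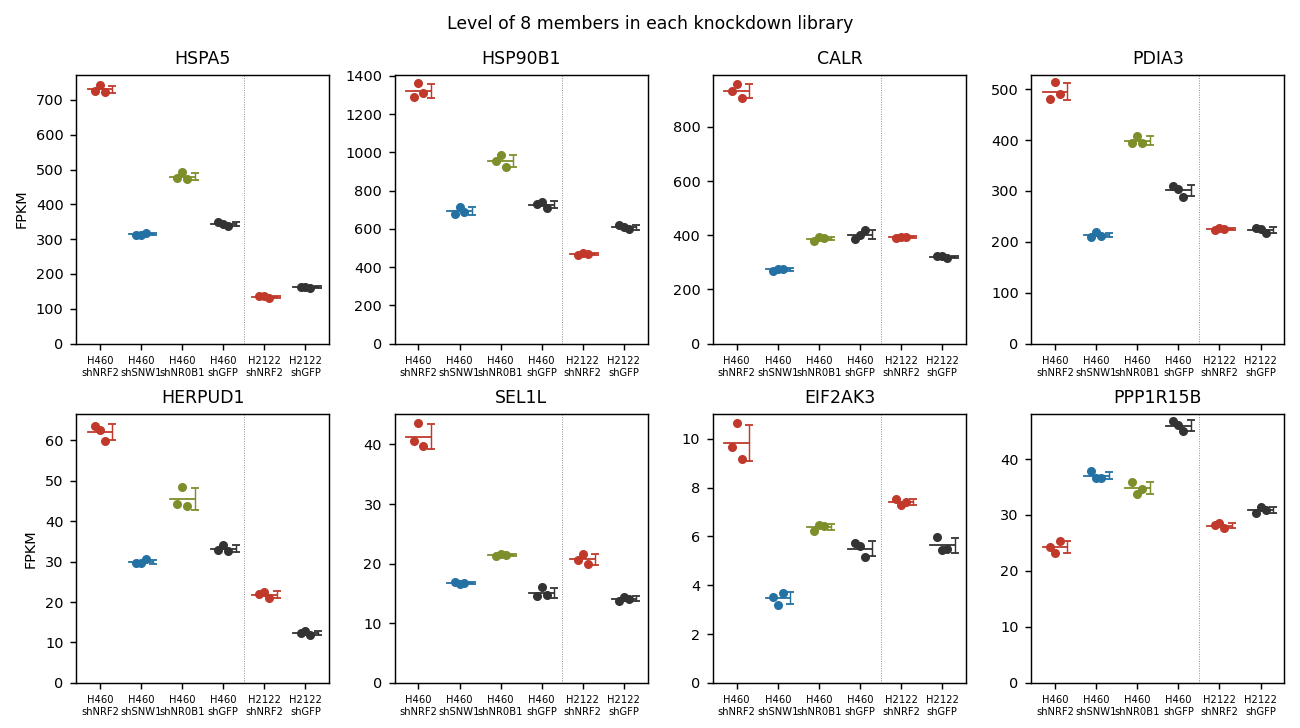
Levels (FPKM) of 8 members in the 18 knockdown libraries, 1 panel per gene, in the order H460 shNRF2, shSNW1, shNR0B1 and shGFP, then H2122 shNRF2 and shGFP; points are libraries, the line is the mean and the bar the SD (n = 3). HSPA5 averages 730.5 FPKM in H460 shNRF2, above every other group, while in H2122 the shNRF2 libraries (mean 135 FPKM) lie below shGFP (161 FPKM).

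SNW1 knockdown in the same line came with lower levels of most of these genes. The members summed to 4055, 4139 and 4119 FPKM in shSNW1, against the same 4646, 4646 and 4719 FPKM in shGFP. Of the 38, 27 fell and 7 rose, where 36.4% of all genes tested were lower and 30.8% higher (67.2% in all); the median log2 fold change was -0.29 over the members and -0.03 over all genes. On the log2(FPKM + 1) scale the changes were small: 5 members fell by at least 1.5 fold and none rose by that much, beside 6.88% and 5.43% of all genes. As plain FPKM levels, the low genes PPP1R15A (higher) and EIF2AK3 (lower) passed 1.5 fold as well. Since shSNW1, shNRF2 and shNR0B1 are all set against one set of shGFP libraries, their values are given side by side, and the difference between shNRF2 and shSNW1 is tested directly further on.

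Of the chaperones of the lumen, 7 of 9 fell and the other 2 were not called. HSPA5 had 312, 313 and 319 FPKM in shSNW1 and 350.3, 343 and 338 FPKM in shGFP (-0.13 ± 0.0268, adjusted p = 0.000767), a fall that was -0.05 and no longer called at a common library total. HSP90B1 (-0.07 ± 0.0341) and SDF2L1 (-0.12 ± 0.0669) did not pass the test, but HSP90B1 passed it without shGFP replicate 3 (-0.0890, adjusted p = 0.0419) or shSNW1 replicate 2 (-0.0936). The clearest falls were in the cochaperones. DNAJC3 had 8.22, 8.07 and 7.73 FPKM in shSNW1 and 12.9, 12.9 and 12.2 FPKM in shGFP (-0.60 ± 0.0386), and DNAJB9 4.22, 4.16 and 4.03 FPKM in shSNW1 and 7.17, 7.08 and 6.84 FPKM in shGFP (-0.64 ± 0.0388); neither pair of groups overlapped. MANF fell here as well (88.7, 96.4 and 93.5 FPKM in shSNW1, -0.52 ± 0.0402), so that it was lower than in shGFP after both knockdowns.

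The lectin genes divided. CALR fell, with 269, 276 and 277 FPKM in shSNW1 and 385, 400.4 and 421 FPKM in shGFP (-0.55 ± 0.0341, adjusted p = 1.09e-08), while CANX rose, with 378, 379 and 366 FPKM in shSNW1 and 259, 269.6 and 248 FPKM in shGFP (0.53 ± 0.033), and so did UGGT1 (0.38 ± 0.046). Thus CALR and CANX, which bind the same glycans, moved in opposite directions. Of the 9 disulfide enzymes, 8 fell and ERP29 rose (0.15 ± 0.0422). ERO1LB had 2.85, 2.58 and 2.795 FPKM in shSNW1 and 5.22, 5.03 and 4.46 FPKM in shGFP (-0.66 ± 0.0553), and ERO1L 35.6, 36.2 and 34.6 FPKM in shSNW1 and 57.4, 55.6 and 52.1 FPKM in shGFP (-0.62 ± 0.0417). Both oxidases lay below all control libraries. The isomerases fell by less, PDIA5 by 0.51, PDIA3 by 0.49, PDIA4 by 0.30 and P4HB by 0.28 on the log2 scale.

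In the degradation group 5 of 8 fell and 2 rose. EDEM1 (-0.41 ± 0.0543) and DERL1 (-0.40 ± 0.0379) fell most, HERPUD1 little (-0.15 ± 0.0417), and the last lost its call at a common total (-0.07). OS9 (0.29 ± 0.0421) and SEL1L (0.14 ± 0.0428) rose, and SYVN1 was not called (0.11 ± 0.0599), though it was called higher at a common total (0.189, adjusted p = 0.0123), with voom (0.142) and without shGFP replicate 3 (0.155). XBP1 fell, with 49.8, 52.5 and 51.9 FPKM in shSNW1 and 81.7, 76.02 and 78.7 FPKM in shGFP (-0.61 ± 0.0462, adjusted p = 8.21e-08). EIF2AK3 had 3.51, 3.21 and 3.68 FPKM in shSNW1, against 5.71, 5.61 and 5.15 FPKM in shGFP (-0.54 ± 0.0585). Hence the stress factor and the PERK kinase were each below the controls, ATF6 (-0.24) and PPP1R15B (-0.30) fell less, and PPP1R15A rose to 10.7, 10.8 and 10.5 FPKM (0.56 ± 0.0482). SEC61A1 (-0.36 ± 0.0388) and SSR1 (-0.47 ± 0.0375) fell; SEC61B was not called, except without shSNW1 replicate 3 or shGFP replicate 2 (-0.101 in each). ERP44 and EDEM2, with falls of -0.09 and -0.14, lost their call at a common total (-0.0179 and -0.0587) and without single libraries, for instance shGFP replicate 1 for ERP44 (-0.069) and shGFP replicate 3 for EDEM2 (-0.083), and so did the rise of ERN1 without shGFP replicate 1 (0.152, against 0.24 with it).

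**Figure D2:**
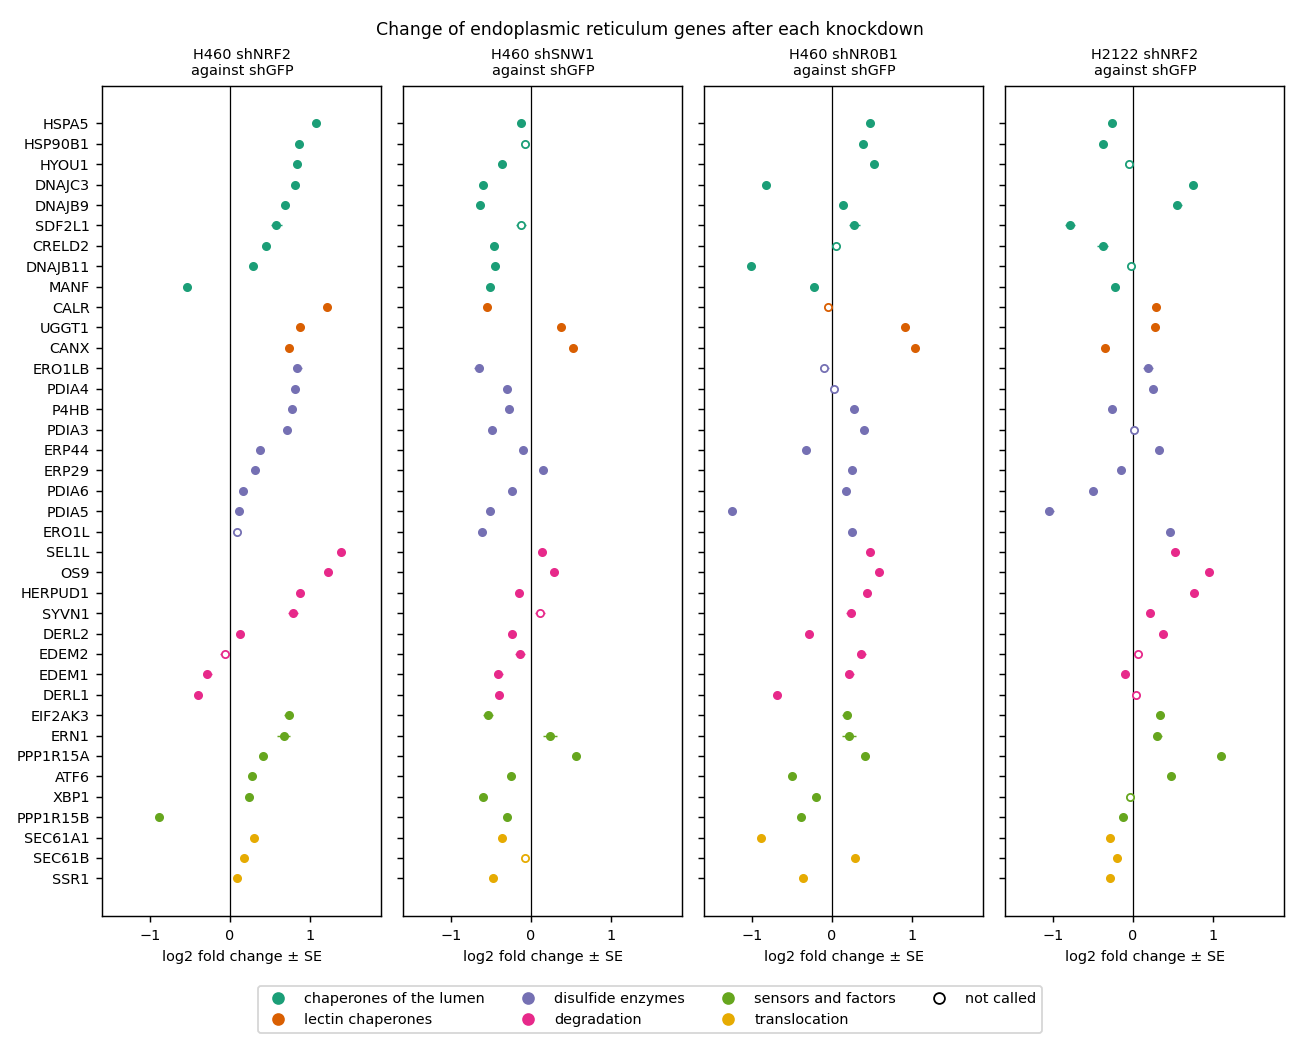
Log2 fold change (log2(FPKM + 1) scale, SE as bars) of the 38 tested members by role in H460 shNRF2, shSNW1 and shNR0B1 and H2122 shNRF2, each against its shGFP control; open symbols did not pass the test. After NRF2 knockdown in H460 32 members lie above 0 and are called, after SNW1 knockdown 27 lie below 0 and are called, and the 3 H460 comparisons share their control libraries.

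The direct test of shNRF2 against shSNW1, which uses no control library as a baseline, called 33 members higher and 2 lower of 38, where 39.6% of all genes were higher and 39.1% lower (78.7% in all). The median difference was 0.69 on the log2 scale over the members and 0.01 over all genes, and 22 members were at least 1.5 fold higher and 1 lower, beside 15.9% and 13% of all genes. The targets themselves differed between these groups by -1.07 (NFE2L2), -2.60 (NR0B1) and 0.45 (SNW1) on the log2 scale, and their separate parts were not tested. For every called member, the 3 shNRF2 libraries lay apart from the 3 shSNW1 libraries. Such separation was not counted over all genes, of which 78.7% were called here, so it sets the members apart from no others. All 9 disulfide enzymes tested, all 3 lectin genes and all 3 translocation genes were higher, as were 8 of 9 chaperones and 6 of 8 degradation genes. On the log2(FPKM + 1) scale the widest gap was in CALR, at 931, 959 and 907 FPKM in shNRF2 and 269, 276 and 277 FPKM in shSNW1 (1.76 ± 0.0341, adjusted p = 2.79e-14). ERO1LB had 9.205, 9.999 and 9.53 FPKM in shNRF2 and 2.85, 2.58 and 2.795 FPKM in shSNW1, which as a ratio of means (3.49 fold) was wider than CALR (3.41 fold), and DNAJC3 (1.42 ± 0.0386), DNAJB9 (1.34 ± 0.0388) and EIF2AK3 (1.28 ± 0.0585) were also far apart. At a common library total ERP29 (0.0440, adjusted p = 0.33) and EDEM1 (0.0233, adjusted p = 0.711) lost their call, as did ERP29 with voom (0.0795) and EDEM1 with voom (0.0646), under median-ratio factors within the fit (0.0903), with no filter on low values and with the replicate block (adjusted p = 0.0528). EDEM1 also lost it without shNRF2 replicate 2 (0.099) or 3 (0.136) and without shSNW1 replicate 1 (0.118) or 2 (0.107), and, at an unchanged value, without shNR0B1 replicate 1 or shGFP replicate 2. The gap was narrow in CANX (0.21 ± 0.033), which was above its controls in both knockdowns. The phosphatase subunits PPP1R15B (24.3, 23.3 and 25.4 FPKM in shNRF2, 37.8, 36.7 and 36.6 FPKM in shSNW1, -0.59 ± 0.0375) and PPP1R15A (-0.15 ± 0.0482) were the 2 members lower in shNRF2. MANF (-0.02 ± 0.0402), DERL1 (-0.00 ± 0.0379) and EDEM2 (0.08 ± 0.0577) were not called, with 95% intervals of -0.11 to 0.06, -0.08 to 0.08 and -0.05 to 0.20. At a common library total MANF (-0.142, adjusted p = 0.00478) and DERL1 (-0.113, adjusted p = 0.0134) were called lower, and MANF also with voom (-0.108, adjusted p = 0.0334).

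**Figure D3:**
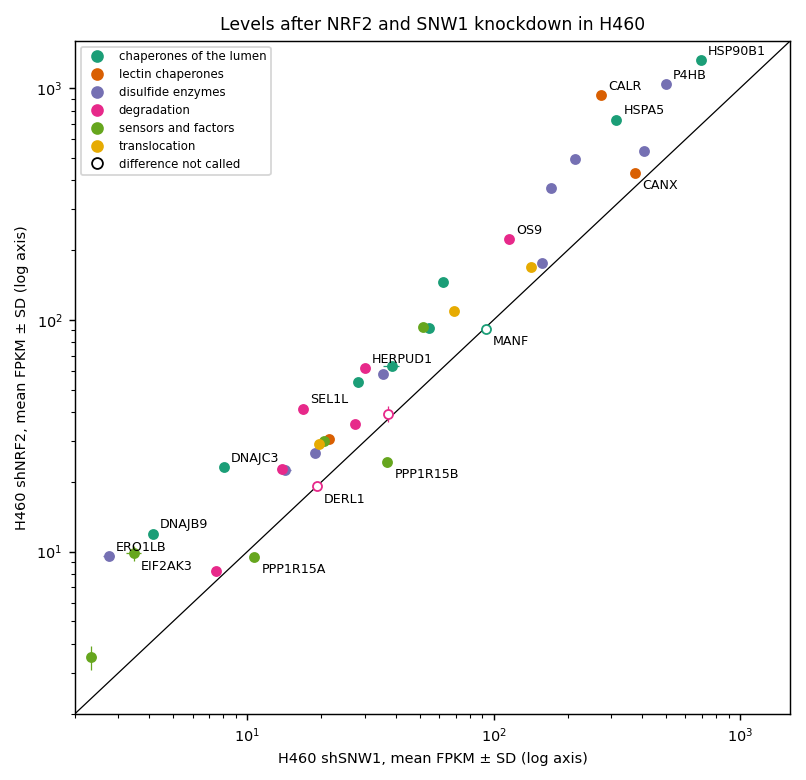
Mean level (FPKM, both axes logarithmic, bars SD, n = 3) of the 38 tested members in H460 shNRF2 (vertical) against H460 shSNW1 (horizontal), with the diagonal marking equal levels and open symbols the 3 members whose difference was not called. Most members lie above the diagonal, ERO1LB (9.58 FPKM in shNRF2, 2.74 FPKM in shSNW1) and CALR (932 FPKM in shNRF2, 274 FPKM in shSNW1) farthest, and PPP1R15B lies below it.

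The 11 genes with an ERSE or ERSE-II in the promoter windows shown earlier can be set beside the 27 tested members without one in these windows. In shNRF2 against shGFP, 11 of the 11 were higher, with a median of 0.84, and 21 of the 27 were higher and 4 lower, with a median of 0.31, where 40.9% of all genes were higher and 39% lower. In shSNW1 against shGFP, 1 of the 11 was higher and 8 lower (median -0.23), beside 6 and 19 of the 27 (median -0.30), where 30.8% of all genes were higher and 36.4% lower. Between shNRF2 and shSNW1 the medians were 0.93 over the 11 and 0.56 over the 27. These figures describe the list and were not tested, and PDIA3 and DERL1 count among the 27 although their promoters were not searched.

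NR0B1 knockdown gave a mixed pattern. Members summed to 5567, 5739 and 5581 FPKM in shNR0B1, against 4646, 4646 and 4719 FPKM in shGFP, and 22 were higher and 12 lower of 38, where 33.1% of all genes were higher and 36.8% lower (69.8% in all). At a common library total the calls over all genes turned from 3946 higher and 4391 lower to 4796 higher and 3574 lower. The median was 0.20 over the members and -0.02 over all genes, with 3 members at least 1.5 fold higher and 5 lower, beside 6.94% and 7.15% of all genes. CANX moved most upward, with 529.9, 535 and 531 FPKM in shNR0B1 and 259, 269.6 and 248 FPKM in shGFP (1.04 ± 0.033, adjusted p = 2.17e-11). UGGT1 had 31.7, 31.8 and 31.4 FPKM in shNR0B1 and 16.5, 17.3 and 15.1 FPKM in shGFP (0.92 ± 0.046), whereas CALR was not called (-0.05 ± 0.0341), except without shGFP replicate 1 (-0.0829, adjusted p = 0.0452). The membrane lectin and the glucosyltransferase thus stood above all their controls, where the soluble lectin overlapped its own. HSPA5 had 475, 492 and 472 FPKM in shNR0B1 (0.48 ± 0.0268), and HYOU1 (0.52), SEL1L (0.48), OS9 (0.59) and HERPUD1 (0.44) rose as well.

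The lower members after NR0B1 knockdown held some of the larger falls in the list. PDIA5, an isomerase relative, had 7.88, 8.45 and 7.94 FPKM in shNR0B1 and 20.6, 20.5 and 21.05 FPKM in shGFP (-1.26 ± 0.0433, adjusted p = 4.38e-11). DNAJB11 had 36.5, 37.8 and 35.4 FPKM in shNR0B1 and 73.1, 78.9 and 72.5 FPKM in shGFP (-1.01 ± 0.0375), and SEC61A1, the channel's pore subunit, 46.05, 48.4 and 47.8 FPKM in shNR0B1 and 86.6, 86.2 and 93.1 FPKM in shGFP (-0.89 ± 0.0388). DNAJC3 (-0.83 ± 0.0386), DERL1 (-0.68 ± 0.0379) and ATF6 (-0.50 ± 0.0395) fell too. Genes of related function moved apart: SEC61B rose (0.29) beside SEC61A1, and DNAJB9 rose (0.13; 0.128 and not called with voom) beside the other J-domain cochaperones. Across shNRF2, shSNW1 and shNR0B1, PPP1R15B changed by -0.89, -0.30 and -0.39 and MANF by -0.54, -0.52 and -0.23, all lower than the shared shGFP libraries, and OS9 by 1.23, 0.29 and 0.59, all higher.

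NRF2 knockdown in H2122 gave shares of higher and lower members near those over all genes, and fewer changes of at least 1.5 fold. The members summed to 3178, 3209 and 3177 FPKM in shNRF2, against 3417, 3413 and 3364 FPKM in shGFP. Of the 38, 17 were higher and 15 lower, where 48.8% of all genes were higher and 38.5% lower (87.3% in all); the median was 0.03 over the members and 0.09 over all genes. By at least 1.5 fold, 4 were higher and 2 lower, beside 22.3% and 19.5% of all genes. The split also moved with the scaling, to 15 higher and 20 lower under median-ratio factors within the fit or voom, which shifted the median of all genes to -0.04 and -0.05. HSPA5 had 136, 136 and 132 FPKM in shNRF2 and 163, 163 and 158 FPKM in shGFP (-0.26 ± 0.0233, adjusted p = 3.27e-06). HSP90B1 had 465, 471 and 467 FPKM in shNRF2 and 620.0, 607 and 597 FPKM in shGFP (-0.38 ± 0.0213), and SDF2L1 19.6, 17.6 and 21.6 FPKM in shNRF2 and 34.1, 33.9 and 35.6 FPKM in shGFP (-0.79 ± 0.0617). In these chaperones the knockdown libraries lay below every control. PDIA5 fell furthest, with 6.03, 4.95 and 5.76 FPKM in shNRF2 and 12.6, 12.6 and 12.5 FPKM in shGFP (-1.05 ± 0.0599).

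Of the degradation genes in H2122 5 rose and 1 fell of 8, and of the sensor group 4 rose and 1 fell of 6, where 48.8% of all genes were higher and 38.5% lower. Under median-ratio factors within the fit and with voom SYVN1 lost its call (0.0733 and 0.0706) and DERL1 was lower (-0.106 and -0.116). OS9 had 142, 141 and 142 FPKM in shNRF2 and 71.4, 73.6 and 72.4 FPKM in shGFP (0.96 ± 0.0212), HERPUD1 22.1, 22.5 and 20.9 FPKM in shNRF2 and 12.3, 12.9 and 11.9 FPKM in shGFP (0.77 ± 0.0402), and PPP1R15A 18.2, 18.4 and 18.8 FPKM in shNRF2 and 7.55, 8.46 and 8.19 FPKM in shGFP (1.10 ± 0.0429). PPP1R15A showed the largest rise among members in this line. DNAJC3 (0.76 ± 0.0336) and DNAJB9 (0.56 ± 0.062) were the 2 chaperone-group genes that rose, and ERO1L (0.46 ± 0.0338), ATF6 (0.47 ± 0.0276) and SEL1L (0.52 ± 0.0387) rose too. All 3 translocation genes fell, by 0.28 (SEC61A1), 0.20 (SEC61B) and 0.28 (SSR1) on the log2 scale. XBP1 was not called (-0.04 ± 0.0308), but it was called lower under median-ratio factors (-0.194, adjusted p = 0.000232), with voom (-0.201) and without H2122 shGFP replicate 3 (-0.0736, adjusted p = 0.0307).

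The difference between the lines was tested as an interaction (response in H2122 minus response in H460). It called 25 of 38 members lower and 8 higher, where 34.3% of all genes were lower and 37.4% higher (71.6% in all), with a median of -0.38 over the members and 0.02 over all genes; 14 were lower and 2 higher by at least 1.5 fold, beside 13.8% and 14.5%. The line, the hours of knockdown (24 h in H2122, 72 h in H460) and the depth of knockdown cannot be told apart here. NFE2L2 mRNA stood at 0.455 of the shGFP mean in H2122 and at 0.621 in H460 (interaction -0.44 ± 0.0532). SDF2L1 (-1.37 ± 0.0873), HSPA5 (-1.34 ± 0.0356) and HSP90B1 (-1.24 ± 0.0393) differed most, followed by PDIA5 (-1.17 ± 0.0729), CANX (-1.09 ± 0.0457) and P4HB (-1.04 ± 0.058). All of these fell in H2122 and rose in H460, PDIA5 only slightly in H460. In all, 16 members were higher in both lines, 12 were lower in H2122 and higher in H460, 3 were lower in both, and none was higher in H2122 and lower in H460. Of all genes, 40.9% were higher and 39% lower in H460, and 48.8% and 38.5% in H2122. Over all genes the 2 lines were not counted against each other, so these member counts are descriptive. PPP1R15B (0.76 ± 0.0486) and PPP1R15A (0.69 ± 0.0716) had the largest positive interactions. DNAJB9 (-0.13 ± 0.0769), DNAJC3 (-0.06 ± 0.0509), ERP44 (-0.05 ± 0.057), HERPUD1 (-0.11 ± 0.0552) and EDEM2 (0.12 ± 0.097) were not called, the first 4 of them being higher in each line; DNAJB9 was called without H2122 shGFP replicate 3 (-0.192, adjusted p = 0.023). Of the 11 genes with an ERSE or ERSE-II, 10 had a lower interaction and none a higher one (median -0.88), beside 15 and 8 of the other 27 (median -0.31), again without a test.

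**Figure D4:**
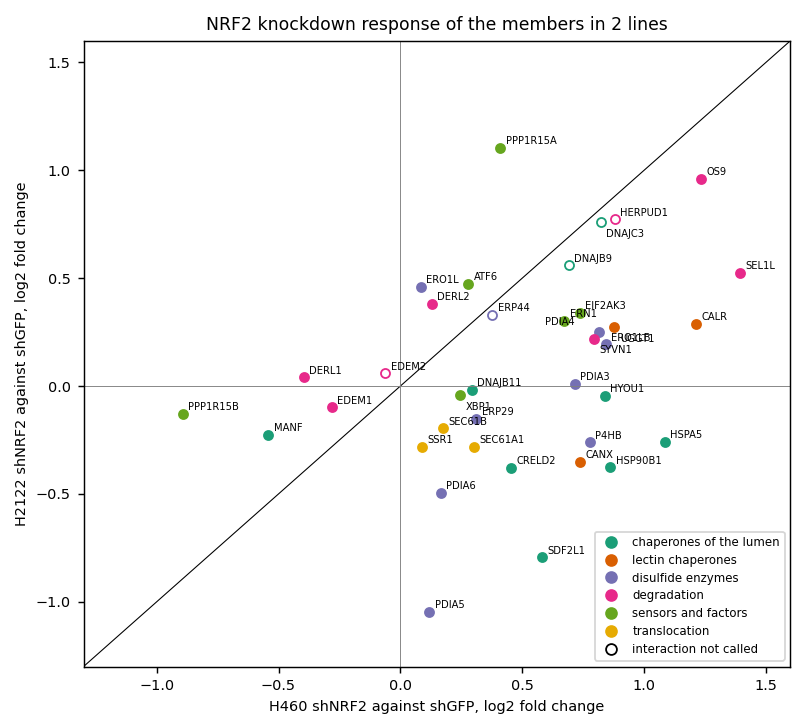
Log2 fold change (log2(FPKM + 1) scale) of the 38 tested members after NRF2 knockdown in H2122 at 24 h (vertical) against H460 at 72 h (horizontal); open symbols are the 5 members whose difference between lines was not called. HSPA5 lies at -0.26 in H2122 and 1.08 in H460, and SDF2L1 at -0.79 in H2122 and 0.58 in H460.

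The compound libraries were read as ratios to the DMSO mean, because the gene lengths behind their FPKM values differ from those of the knockdown columns (over 2 fold for 21 of the 40 members). BPK29 raised 23 of 38 members and lowered 1, where 21.1% of all 11461 genes tested were higher and 29.3% lower (50.4% in all); the median log2 fold change was 0.09 over the members and -0.02 over all genes. The effects were small, 1 member passing 1.5 fold upward and none downward, beside 0.838% and 1.53% of all genes. HERPUD1 stood at 1.28, 1.27 and 1.29 of the DMSO mean in the 3 BPK29 libraries (0.35 ± 0.0326, adjusted p = 2.36e-05). HSP90B1 stood at 1.28, 1.29 and 1.299 (0.37 ± 0.0185), HSPA5 at 1.25, 1.23 and 1.23 (0.31 ± 0.0195) and SEL1L at 1.25, 1.21 and 1.24 (0.29 ± 0.0338) in the same libraries. In these 4 genes each BPK29 library lay above each DMSO library. Among the tested members the oxidase ERO1LB had the highest ratios, 1.77, 1.65 and 1.53 with BPK29 (0.65 ± 0.12, adjusted p = 0.00153), but it also varied with BPK9 (0.955, 1.28 and 1.25). By role, 7 of 9 chaperones, 2 of 3 lectin genes, 6 of 9 disulfide enzymes, 6 of 8 degradation genes, 1 of 3 translocation genes and 1 of 6 sensor genes were higher. Some of the smallest changes were not stable: the calls of CALR, CANX, ERP44, DERL2, PPP1R15B and SEC61B were each lost when single libraries were left out, for instance without BPK29 replicate 3 (0.055 for CALR, 0.067 for CANX) or without DMSO replicate 3 (0.045 for ERP44), which took the number of called members to 18 at the fewest. EIF2AK3, the PERK kinase, was the member that fell, at 0.822, 0.908 and 0.819 of the DMSO mean (-0.21 ± 0.0423).

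BPK9 at the same dose and time changed no member by limma, where 0 genes were called higher and 0.00873% of all genes lower. At an unadjusted p under 0.05 there were 4 members, beside 1725 of the 11461 genes tested, and voom on recovered reads called 0 members, beside 119 genes higher and 121 lower. The 95% intervals of all 38 members lay within 1.5 fold, the widest bounds being -0.192 and 0.457 on the log2 scale. HSPA5 stood at 0.974, 0.964 and 1 of the DMSO mean with BPK9 (-0.03 ± 0.0195, interval -0.07 to 0.01) and HERPUD1 at 0.935, 0.97 and 1.003 (-0.04 ± 0.0326, interval -0.12 to 0.03). Compared directly, BPK29 was higher than BPK9 in 21 members and lower in 1, where 19.7% of all genes were higher and 27.2% lower (46.9% in all). The median was 0.09 over the members and -0.01 over all genes, and no member passed 1.5 fold, beside 0.55% of all genes higher and 1.36% lower by that much. The difference was 0.39 ± 0.0326 in HERPUD1 (adjusted p = 1.54e-05), 0.34 ± 0.0195 in HSPA5 and 0.33 ± 0.0185 in HSP90B1, and -0.18 ± 0.0423 in EIF2AK3. It was not called in CALR (0.03 ± 0.0216, interval -0.01 to 0.08) or XBP1 (-0.03 ± 0.0314, interval -0.10 to 0.04); CALR was called higher at a common total (0.0842, adjusted p = 0.0104) and with voom (0.0560).

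**Figure D5:**
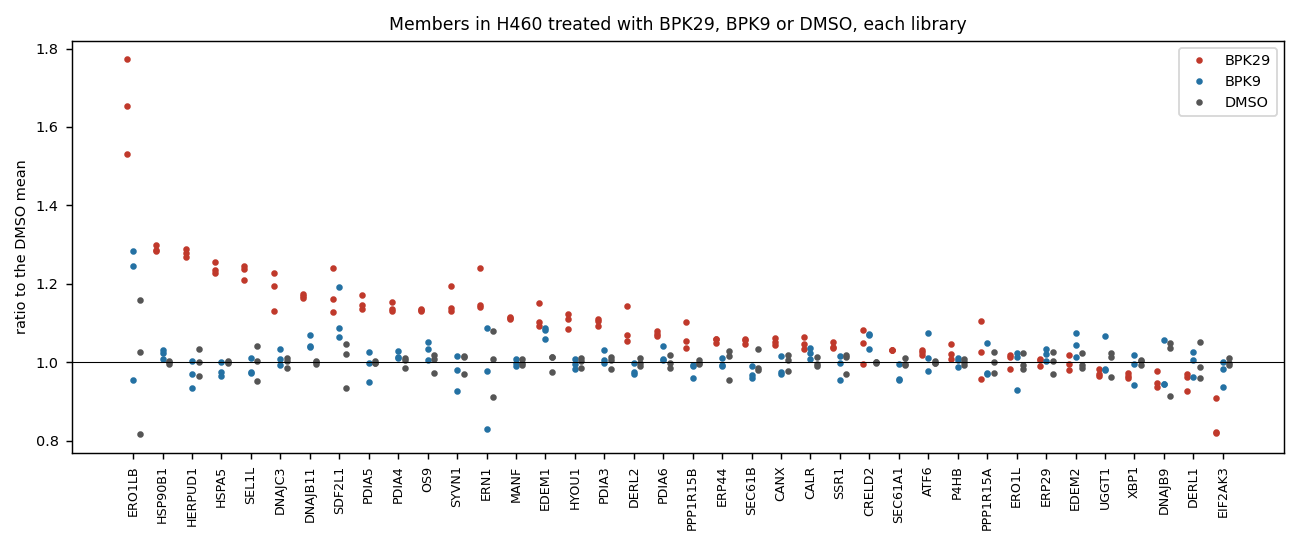
Ratio of each compound library to the mean of the 3 DMSO libraries (no unit) for members of the list, with BPK29, BPK9 and DMSO from left to right and points for libraries. HERPUD1, HSP90B1, HSPA5 and SEL1L lie between 1.21 and 1.30 in all BPK29 libraries, while EIF2AK3 lies between 0.819 and 0.908.

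Other genes of the secretory pathway were counted in 5 further lists, of which 130 genes were tested in H460. After NRF2 knockdown 78 were higher and 34 lower, after SNW1 knockdown 28 and 67, after NR0B1 knockdown 40 and 62, and between shNRF2 and shSNW1 86 and 27, with medians of 0.17, -0.13, -0.10 and 0.34 on the log2 scale. Over all genes the shares called higher and lower were, in the same order of comparisons, 40.9% and 39%, 30.8% and 36.4%, 33.1% and 36.8%, and 39.6% and 39.1%. Other folding and glycan-trimming enzymes (30 genes) had 23 higher and 4 lower after NRF2 knockdown (median 0.50), 3 and 24 after SNW1 knockdown (-0.29) and 26 and 2 in the direct test (0.73). FKBP10, a proline isomerase of collagen folding, had 615, 575 and 562 FPKM in shNRF2, 168, 166 and 170.4 FPKM in shSNW1 and 265, 276 and 306 FPKM in shGFP, a difference between the knockdowns of 1.79 ± 0.0468. RCN1, a calcium-binding protein of the ER, had 149, 161 and 162 FPKM in shNRF2 and 50.6, 59.3 and 52.9 FPKM in shSNW1 (1.52 ± 0.0559). Its shGFP libraries, at 147, 149 and 136 FPKM, overlapped those of shNRF2, and RCN1 was lower in shSNW1 than in shGFP (-1.39 ± 0.0559). Some of this list went down after NRF2 knockdown: TMX1, a membrane-bound thioredoxin relative, had 10.9, 10.8 and 11.3 FPKM in shNRF2 and 35.02, 34.02 and 31.2 FPKM in shGFP (-1.52 ± 0.0461), and FKBP11 fell too (-1.29 ± 0.0434). These falls were not confined to shNRF2. In shSNW1, FKBP11 was also lower than in shGFP (-0.89 ± 0.0434), and TMX1 had 24.8, 23.2 and 23.0 FPKM. Among other degradation factors (11 higher and 8 lower of 22), ERLEC1, a lectin related to OS9, had 141, 152 and 145 FPKM in shNRF2 and 43.1, 44.98 and 42.1 FPKM in shGFP (1.73 ± 0.0408). ERLEC1 was also higher than in these shGFP libraries in shSNW1 (0.59 ± 0.0408) and in shNR0B1 (0.49 ± 0.0408).

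Other sensors and stress factors had 10 higher and 9 lower of 23 after NRF2 knockdown in H460 (median 0.02), shares near those over all genes (40.9% and 39%). The proteases MBTPS1 and MBTPS2 cut ATF6 at the Golgi. MBTPS2 had 44.5, 43.02 and 44.6 FPKM in shNRF2 and 17.5, 18.8 and 17.3 FPKM in shGFP (1.26 ± 0.0359), and MBTPS1 was 1.21 higher on the log2 scale in shNRF2 than in shSNW1. Against the same shGFP libraries MBTPS2 was also higher in shSNW1 (0.55 ± 0.0359) and in shNR0B1 (0.50 ± 0.0359). TRIB3 and CHAC1, both known targets of ATF4, fell: TRIB3, a pseudokinase, had 16.6, 15.9 and 16.5 FPKM in shNRF2 and 46.1, 44.6 and 49.8 FPKM in shGFP (-1.46 ± 0.0619), and CHAC1, a glutathione-degrading enzyme, 0.934, 0.49 and 0.742 FPKM in shNRF2 and 4.35, 5.45 and 5.75 FPKM in shGFP. CHAC1 was also lower in shNR0B1 than in shGFP (-1.12 ± 0.119). ATF4 itself had 119, 112 and 112 FPKM in shNRF2 and 197, 211 and 205 FPKM in shSNW1 (-0.83 ± 0.0454), and its part in these falls was not tested. In H2122, where 17 of 24 rose and 7 fell (median 0.34, beside 48.8% and 38.5% of all genes), CHAC1 rose, with 12.1, 10.6 and 10.3 FPKM in shNRF2 and 2.29, 2.25 and 2.604 FPKM in shGFP (1.83 ± 0.0661). TRIB3 fell there as it did in H460, with 8.300, 9.03 and 8.35 FPKM in H2122 shNRF2 and 20.5, 22.1 and 22.5 FPKM in H2122 shGFP (-1.25 ± 0.046). CREB3L1, an ER-anchored transcription factor cut like ATF6, had 19.97, 18.8 and 18.9 FPKM in H2122 shNRF2 and 1.202, 1.02 and 1.14 FPKM in H2122 shGFP (3.26 ± 0.05, adjusted p = 3.45e-11). DDIT3 (CHOP), a factor of prolonged ER stress, had 15.3, 18.2 and 16.7 FPKM in H460 shSNW1 and 7.17, 9.18 and 7.51 FPKM in shGFP (0.99 ± 0.0772), in the knockdown in which most chaperones fell.

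Finally, the 2 members under the minimum level are given as values without a test. TXNDC5, a disulfide isomerase relative, had 0.635, 0.908 and 0.563 FPKM in H460 shNRF2, 0.412, 0.376 and 0.744 FPKM in shSNW1, 0.216, 0.494 and 0.386 FPKM in shNR0B1 and 1.18, 0.373 and 0.383 FPKM in shGFP. One control library stood above the other two, and the gene is overlapped by a read-through transcript with the neighbouring gene, so its reads cannot be assigned with certainty. DERL3, the third derlin, had 0.495, 0.643 and 0.344 FPKM in H460 shNRF2, 0.248, 0.426 and 0.194 FPKM in shSNW1, 0.424, 0.483 and 0.557 FPKM in shNR0B1 and 0.806, 0.558 and 0.764 FPKM in shGFP, and no library reached 1 FPKM. In H2122, TXNDC5 had 0.21, 0.0576 and 0.309 FPKM in shNRF2 and 0.259, 0.294 and 0.341 FPKM in shGFP, and DERL3 0.186, 0.11 and 0.0985 FPKM in shNRF2 and 0.495, 0.555 and 0.455 FPKM in shGFP; the 2 groups overlapped for TXNDC5 and did not for DERL3.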

How the data were processed

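The authors deposited 1 table of FPKM values for 23710 genes in 27 RNA libraries; the tools named, per the submitters' processing notes, include STAR, featureCounts and DESeq2 with build hg19, and what each did, which annotation was counted and with which strand option is not stated in the sources. Per the labels' protocols, libraries came from polyadenylated RNA with the TruSeq kit version 2, which keeps no strand, so antisense partners cannot be told apart. Low FPKM values were whole multiples of the value of 1 read: reads were recovered for 100% of 16934 genes in the knockdown columns and 100% of 15171 in the compound columns (tolerance 0.02 reads). The knockdown columns follow median-ratio factors, and the compound columns follow them to within 1.04%. The compound columns imply other gene lengths, so they were used as ratios only.

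Tests used limma 3.58.1 with a mean-variance trend in R 4.3.3, on log2(FPKM + 1), for genes at or above 1 FPKM in 3 or more libraries of a fit, with calls at 0.05 after Benjamini-Hochberg adjustment over all genes tested. Fits held the 12 H460 knockdown libraries, the 6 H2122 libraries, 12 libraries for the interaction and the 9 compound libraries. Scripts were tested on simulated data. Alternatives were other scalings, filters and pseudocounts, voom on recovered reads, a replicate block and leaving out each library. All 40 members are named, and further pathway genes by a rule taking, per list and knockdown comparison, up to 2 called genes in each direction with the largest change, no overlap of libraries and a mean of at least 5 FPKM in the higher group. The members and lists were chosen with earlier results of these data known. Replicates of a group differed by more than sampling noise (chi-square per degree of freedom 1.26 to 5.99). The chromatin immunoprecipitation of NR0B1 and its peak list were not used here. Motif searches read RefSeq promoters of GRCh38.p14.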

Additional observations from a re-analysis of the deposited data

Results flagged for a closer look

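The results set out here are the members whose NRF2 knockdown response differed between the lines by the interaction test (H2122 at 24 h minus H460 at 72 h, log2 scale, limma, adjusted p under 0.05). Line, hours and depth of knockdown cannot be told apart. Chaperones of the lumen differed by -1.34 (HSPA5), -1.24 (HSP90B1), -0.88 (HYOU1), -0.31 (DNAJB11), -1.37 (SDF2L1), 0.32 (MANF) and -0.83 (CRELD2). Lectin cycle genes differed by -0.92 (CALR), -1.09 (CANX) and -0.61 (UGGT1). Disulfide enzymes differed by -0.71 (PDIA3), -0.56 (PDIA4), -1.17 (PDIA5), -0.66 (PDIA6), -1.04 (P4HB), -0.46 (ERP29), 0.37 (ERO1L) and -0.65 (ERO1LB). Degradation genes differed by -0.87 (SEL1L), -0.57 (SYVN1), 0.18 (EDEM1), 0.44 (DERL1), 0.25 (DERL2) and -0.27 (OS9). The EDEM1 call was lost without H460 shNRF2 replicate 1 (0.159, adjusted p = 0.0516) or H460 shGFP replicate 1 (0.14, adjusted p = 0.0523). In the sensor group the differences were -0.29 (XBP1), 0.2 (ATF6), -0.37 (ERN1), -0.4 (EIF2AK3), 0.69 (PPP1R15A) and 0.76 (PPP1R15B), and in translocation -0.58 (SEC61A1), -0.37 (SEC61B) and -0.37 (SSR1).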

How the results depend on the processing

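Of 6523 values of single members under alternatives, 6341 kept their side of the threshold, 57 became called in the same direction, 121 lost the call and 4 reversed. A change of sign between uncalled values was not counted as a reversal and falls among the 6341. The reversals were uncalled values in H2122 that became called lower: PDIA3 at -0.144 and DERL1 at -0.106 under median-ratio scaling within the fit, and -0.15 and -0.116 with voom; these settings lowered the median of all genes from 0.094 to -0.040 and -0.051. At a common total 4 members instead of 2 were lower in shNRF2 against shSNW1, and the all-gene split of higher and lower calls went from 3671 and 4349 to 4588 and 3527 in shSNW1, from 2418 and 3359 to 3642 and 2314 in BPK29 against DMSO, and from 2258 and 3121 to 3293 and 2291 in BPK29 against BPK9. That scaling moved the median of all genes from 0.005 to -0.098 in shNRF2 against shSNW1, and there HSPA5 and HERPUD1 lost their small falls in shSNW1. Leaving out each library gave 34 to 37 called members in H460 shNRF2, 31 to 35 in shSNW1, 33 to 35 in shNR0B1, 34 to 35 in shNRF2 against shSNW1, 31 to 32 in H2122, 32 to 34 for the interaction, 18 to 23 for BPK29 against DMSO, 0 for BPK9 and 20 to 23 for BPK29 against BPK9. Libraries with the same replicate number had correlations of -0.093 to 0.130 in H460, 0.054 to 0.126 in H2122 and -0.035 to 0.072 with compounds. Those with different numbers had -0.156 to 0.165 in H460, -0.101 to 0.015 in H2122 and -0.068 to 0.060 with compounds. The ranges overlapped in H460 and with compounds, but in H2122 every same-number value lay above every different-number value. Whether replicate numbers pair the libraries was not tested. The fit with a replicate block called 35, 33, 34, 34, 32, 34, 24, 0 and 23 members, in the order used for leaving out each library. Fold changes of low members (ERN1, ERO1LB, EIF2AK3) are limited by depth and shrunk by the pseudocount.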

Other observations

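Transport between the ER and the Golgi was counted as one of the further lists (30 genes). After NRF2 knockdown in H460 23 rose and 4 fell, where 40.9% of all genes were higher and 39% lower. After SNW1 knockdown 11 rose and 13 fell (median -0.08), beside 30.8% and 36.4% of all genes. NR0B1 knockdown came with 7 higher and 20 lower (median -0.22), beside 33.1% and 36.8%, and KDELR1 (-1.04 ± 0.0361) and SAR1B (-0.97 ± 0.0421) fell there. The first 2 genes that follow thus do not stand for the list in shNR0B1. TMED2, a cargo receptor of transport vesicles, had 195, 205 and 202 FPKM in shNRF2, 157, 155 and 150.1 FPKM in shSNW1, 146, 141 and 146 FPKM in shNR0B1 and 59.3, 57.8 and 55.2 FPKM in the shared shGFP libraries, above the controls in each knockdown. LMAN2, a lectin of the same route, had 267, 258 and 256 FPKM in shNRF2, 174, 173 and 174 FPKM in shSNW1, 221, 227 and 228 FPKM in shNR0B1 and 96.9, 95.5 and 109.6 FPKM in shGFP, while LMAN1, a cargo receptor for clotting factors, fell after NRF2 knockdown (-0.53 ± 0.0384) in H460 and in H2122 (-0.62 ± 0.0307).

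The translocon, signal peptidase and oligosaccharyltransferase list (25 genes) had 11 higher and 9 lower after NRF2 knockdown in H460 and 3 higher and 17 lower after SNW1 knockdown, beside 40.9% and 39% of all genes in the first comparison and 30.8% and 36.4% in the second. DDOST, a subunit of the enzyme that attaches sugar chains, had 348, 336 and 321 FPKM in shNRF2, 179, 177 and 183 FPKM in shSNW1, 237, 245 and 242 FPKM in shNR0B1 and 126, 126 and 138 FPKM in shGFP, and in H2122 158, 156 and 151 FPKM in shNRF2 and 112, 115 and 112 FPKM in shGFP. The signal recognition particle receptor gene SRPR fell after NRF2 knockdown in both lines (-1.15 ± 0.03 in H460, -0.83 ± 0.0319 in H2122), and so did SSR3 of the translocon (-0.84 ± 0.0403 in H460, -0.85 ± 0.0258 in H2122), where SSR1 of the same complex changed little in H460. Other knockdowns in H460 lowered these genes as well, SSR3 in shSNW1 (-0.90 ± 0.0403) and SRPR in shNR0B1 (-0.37 ± 0.03).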
